A study of Mus musculus with 14 samples.

Results

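The collagen chain genes of the mouse were followed across sorted cell populations of a skin wound. A member was any protein-coding gene of the deposited count table whose mouse symbol is Col, a number, the letter a and a number, which gave 44 of 52636 genes. They comprised 11 fibrillar chains, 9 fibril-associated (FACIT) chains, 9 network-forming chains, 6 beaded type VI chains, 4 transmembrane chains, 2 multiplexins and 3 others. RNA was sequenced from 14 libraries of dermal cells isolated by fluorescence-activated cell sorting, 2 libraries for each of 7 groups. Every library came from male C57/BL6 mice aged 7 weeks, from the bed of a wound on day 5 after injury. The series concerns fat cells of the skin and the cells derived from them.

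The new set held 6 libraries in 3 groups. Adipocyte is labelled as fat cells, AdipoqTraced as cells traced through Adipoq, with GFP in the description, and CD26 by the surface protein made from Dpp4. The reanalysed set consisted of 4 groups (8 libraries) drawn from an earlier series, called young in their titles. AP_CD9Low and AP_CD9High are AP cells with little or much CD9, and per the file headers CD29 stands for CD29-high cells and DN for CD29-low cells. The labels do not say what AP and DN abbreviate, which allele traced the cells, how the gates were set and whether animals were pooled. Nothing says that the replicates are separate animals, so the p-values reflect only how far these libraries differ, and that may be technical variation. Since no group occurs in both sets, set and group cannot be told apart, and groups were compared only within a set.

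Collagens are built from 3 chains wound into a triple helix, in which every position of one kind along the chain is taken by glycine, the only residue small enough to face the axis. Fibrillar collagens of types I, III and V form the cables of the dermis, FACIT collagens sit on their surface, type IV makes the sheet of basement membranes, type VI makes beaded filaments around cells, and type VII anchors the epidermal basement membrane to the dermis. During repair of skin, fibroblasts lay down type III and type I collagen in the new tissue, while pericytes, endothelial cells, keratinocytes and adipocytes make basement membrane chains.

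The shared repeat can be read in the exons. Below is 1 exon from each of 6 chains around which the results turn, chosen inside its longest unbroken run of glycine triplets, with the glycine codons in capitals. The sequences are 5′ to 3′ on the coding strand, from the GRCm38 (mm10) build with GENCODE M21 exons. They are exon 8 of Col1a1 at chr11:94939904-94939957 (plus strand), exon 6 of Col3a1 at chr1:45325360-45325413 (plus), exon 57 of Col12a1 at chr9:79612916-79612969 (minus), exon 4 of Col4a1 at chr8:11246863-11246907 (minus), exon 25 of Col6a3 at chr1:90789031-90789093 (minus) and exon 107 of Col7a1 at chr9:108980207-108980260 (plus).
Col1a1: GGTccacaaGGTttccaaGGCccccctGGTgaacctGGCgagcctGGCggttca
Col3a1: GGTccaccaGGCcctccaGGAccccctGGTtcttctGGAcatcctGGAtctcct
Col12a1: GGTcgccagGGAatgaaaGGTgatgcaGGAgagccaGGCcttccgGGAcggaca
Col4a1: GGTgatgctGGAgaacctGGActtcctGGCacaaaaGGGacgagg
Col6a3: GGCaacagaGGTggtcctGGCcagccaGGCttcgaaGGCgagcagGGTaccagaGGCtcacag
Col7a1: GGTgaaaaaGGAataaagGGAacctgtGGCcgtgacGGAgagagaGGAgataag
A glycine codon opens every 9 bases in all 6, and the classes differ in how long this goes on. The longest run was 216 to 344 triplets in the fibrillar chains and 23 to 113 in the members of the other classes. It was 338 triplets in Col1a1, 344 in Col3a1, 75 in Col7a1, 45 in Col6a3, 40 in Col4a1 and 32 in Col12a1, whose reading frame has 3065 codons. Of 690 coding exons inside such runs, 681 had a length that is a multiple of 9 bases, and 361 were 54 bases long.

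The upstream sequences of Col3a1 and Col7a1 are shown because these chains went opposite ways among the reanalysed groups. Each line gives the 250 bases before the RefSeq start (GRCm38.p6, plus strand), chr1:45311288-45311537 for Col3a1 and chr9:108953336-108953585 for Col7a1, with matches to 3 motifs on either strand in capitals: the TATA box letters TATAAA, the GC box letters GGGCGG, and the CCAAT box, none of which overlap here.
Col3a1: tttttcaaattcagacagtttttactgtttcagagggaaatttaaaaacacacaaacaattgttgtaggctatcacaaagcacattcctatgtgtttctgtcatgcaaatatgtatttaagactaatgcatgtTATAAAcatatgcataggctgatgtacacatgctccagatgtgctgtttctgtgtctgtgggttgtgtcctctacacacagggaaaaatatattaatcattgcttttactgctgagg
Col7a1: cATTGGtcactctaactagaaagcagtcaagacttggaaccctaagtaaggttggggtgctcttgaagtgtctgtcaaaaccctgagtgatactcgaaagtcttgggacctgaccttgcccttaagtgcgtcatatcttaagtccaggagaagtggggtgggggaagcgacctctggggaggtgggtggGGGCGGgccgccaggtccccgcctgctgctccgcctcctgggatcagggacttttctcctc
The Col3a1 window holds 1 TATAAA and neither of the others, and the Col7a1 window holds 1 GGGCGG and 1 CCAAT (on the minus strand) and no TATAAA. A window was at hand for 35 of the 44 members, 38 windows in all. TATAAA occurred in 5 of these 38 (13.2%) against 12.4% of 32851 windows of all genes, GGGCGG in 22 (57.9%) against 32.7%, and CCAAT in 13 (34.2%) against 33.8%. A match describes the letters of the window and is not a site. Col4a1 and Col4a2, the paired chains of the main type IV collagen, are transcribed away from each other, and their annotated genes overlap by 22 bases at chr8:11312805-11312826, shown on the plus strand.
Col4a1 and Col4a2: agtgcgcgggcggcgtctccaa
Without a stated strand setting, reads in such overlaps cannot be assigned. Exon bases are shared with another gene by 13 members, among them Col3a1, Col4a1, Col4a2, Col4a3, Col5a1, Col6a6, Col7a1 and Col15a1, and their values are uncertain to that extent.

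Total counts lay between 13760557 and 22218364 per library. Mitochondrially encoded genes accounted for 79.07% and 84.79% of the Adipocyte counts, for 18.45% to 38.77% in the other new libraries and for at most 0.9412% in the reanalysed ones, so the Adipocyte libraries kept only 2952186 and 3255546 other counts. The 6 adipocyte markers summed to 7179 and 4620 CPM (counts per 1e+06 counts, after TMM scaling) in Adipocyte and to 85.18 or less in every other library, and Dpp4 was at 133.8 and 140.8 CPM in CD26 against 14.1 to 47.6 in the other new libraries. Itgb1, which encodes CD29, was at 776 ± 148 CPM in CD29 and 582 ± 6.71 in DN (SD, n = 2), and the fit across all genes did not call it (adjusted p = 0.382). The 2 Adipocyte libraries stood apart from each other, as Pdgfra, a fibroblast marker, was at 1.13 CPM in replicate 1 and 50.8 in replicate 2. Skeletal muscle markers summed to 148.8 and 408.7 CPM in Adipocyte and to 2.66 or less in the other new libraries.

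Collagen transcripts took up a large part of the RNA in every population but the adipocytes. As a share of the counts outside the mitochondrial genome, the 44 genes made up 1.19% and 2.25% in Adipocyte, 10.01% and 9.02% in AdipoqTraced, and 11.8% and 12.8% in CD26. In the reanalysed set they made up 19.5% and 17.7% in AP_CD9Low, 19.8% and 18.5% in AP_CD9High, 12.2% and 11.7% in CD29, and 12.9% and 11.9% in DN. The AP libraries lay above those of CD29 and DN without overlap, and CD29 and DN overlapped. In bulk samples, fewer cells of a type and less RNA per cell cannot be told apart.

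**Figure D1:**
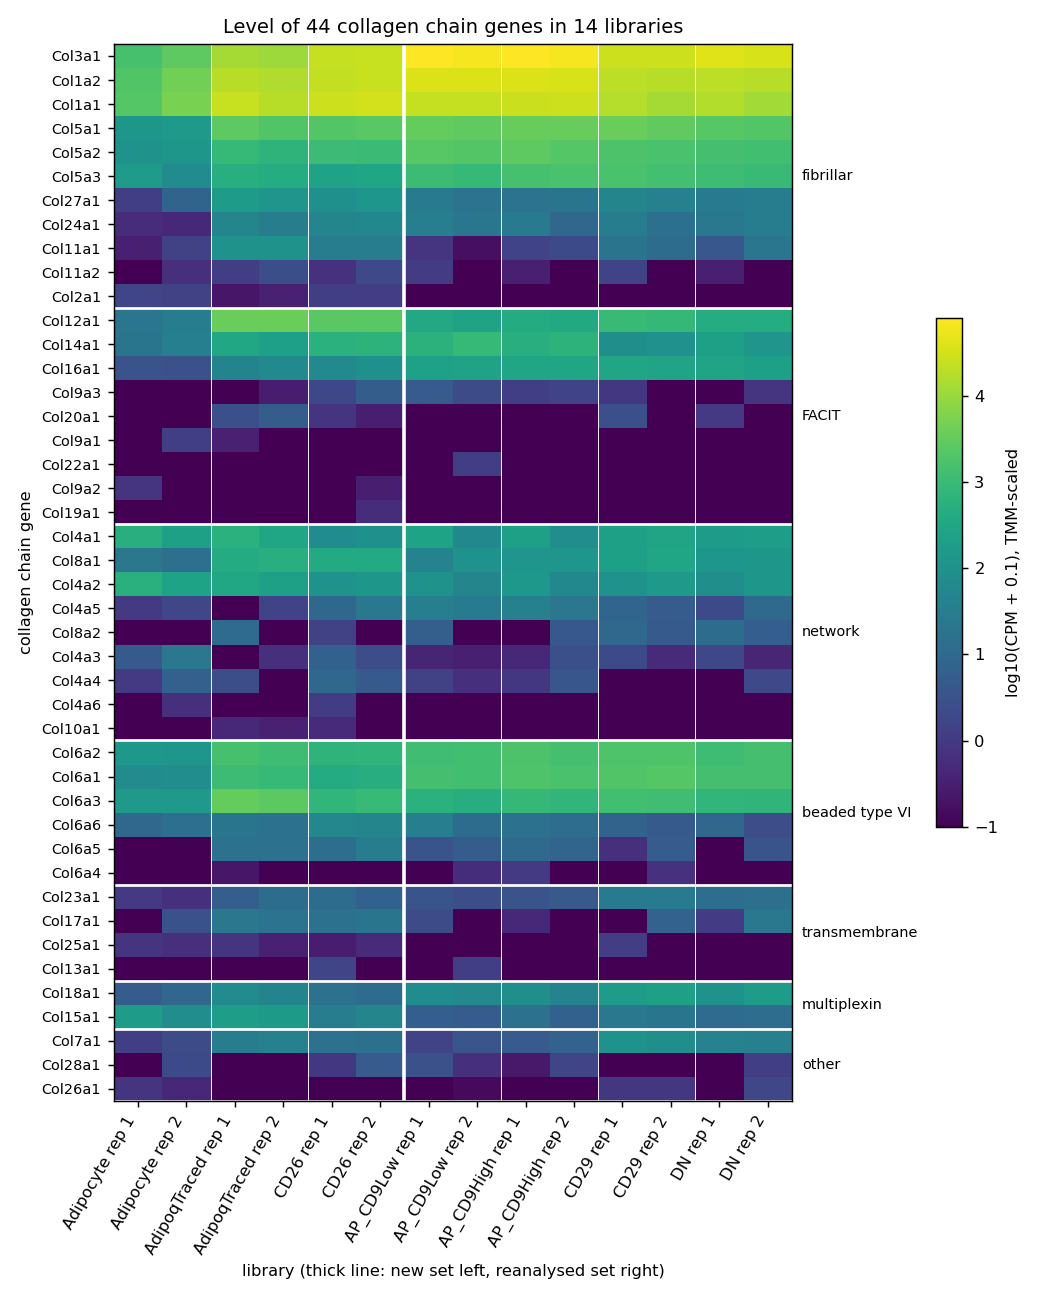
Level of the 44 collagen chain genes (rows, by class) in each of the 14 libraries (columns, by group), as log10 of CPM plus 0.1, on the colour scale. Col1a1, Col1a2 and Col3a1 are high in every library, while Col7a1 stands out in CD29 and DN among the reanalysed libraries, at 37.7 to 108 CPM against 7.18 CPM or less in the AP libraries.

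Col1a1, Col1a2 and Col3a1, which encode the chains of types I and III, held 73.1% to 92.4% of the collagen counts of a library. The rest was divided differently from group to group. The type VI share of collagen counts was 8.07% and 8.01% in AdipoqTraced, and 2.30% and 2.45% in CD26. The FACIT share was 5.36% and 6.90% in AdipoqTraced, and 3.73% and 3.46% in CD26. In the reanalysed set the type VI share was 6.31% and 7.36% in CD29, 3.87% and 4.83% in DN and 2.15% to 2.83% in the AP libraries, with no overlap. Network chains took 13.96% in Adipocyte replicate 1 and 3.86% in replicate 2, against 0.703% to 1.87% in the other new libraries. These shares are of counts, not per length, and were not tested. A share also rises when other classes fall. Summed type VI levels were 3400 to 3603 CPM in DN, inside the 3096 to 4553 of the AP libraries, and 5202 to 5364 in CD29. Summed network levels were 527.8 to 1111 CPM in Adipocyte and 1030 to 1368 in AdipoqTraced.

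**Figure D2:**
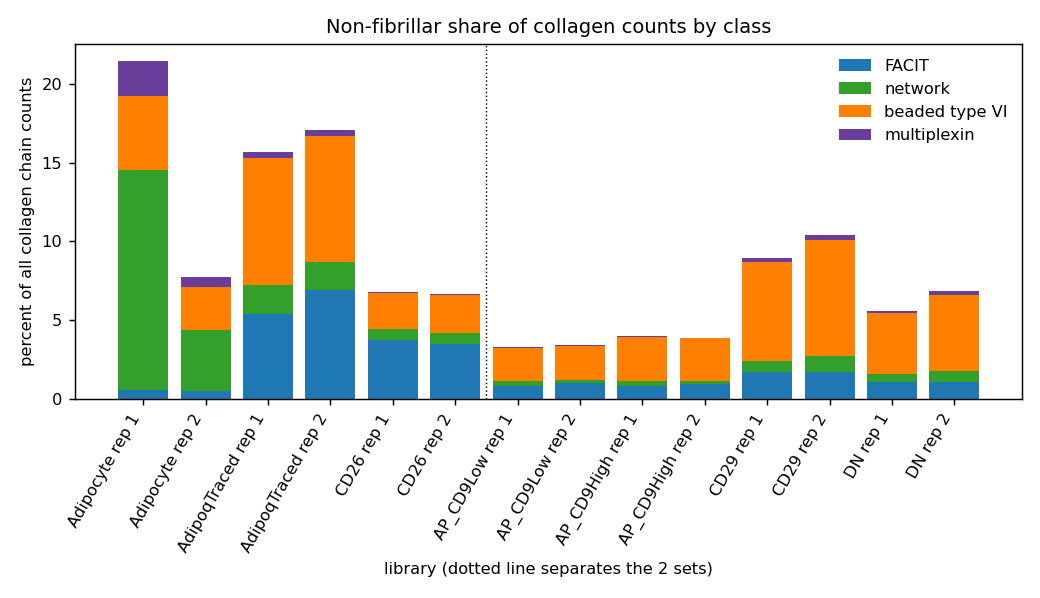
Stacked share of collagen counts (percent) of the FACIT, network, type VI and multiplexin chains per library, without the fibrillar chains and the transmembrane and other chains. The type VI part was 8.07% and 8.01% in AdipoqTraced and 2.30% and 2.45% in CD26, and the network share of the Adipocyte libraries was 13.96% and 3.86%.

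Compared with adipocytes, AdipoqTraced cells had 18 of the 44 collagen chains called higher and 1, Col4a3, lower. In this comparison 8.15% of all 16107 genes tested were called (edgeR quasi-likelihood test, Benjamini-Hochberg adjusted p under 0.05), 4.08% higher and 4.07% lower, and 9 members were not tested because their counts were too low. CD26 cells had 17 chains higher and 3 lower, against 8.88% of all genes called, 4.91% higher and 3.97% lower. The median log2 fold change of the 35 tested members was 3.28 and 3.16, beside 0.27 and 0.30 over all tested genes. A chain could pass the filter on counts through the group where it is high, so these medians are descriptions. Scaled by library size alone, the splits were 27 higher and 0 lower in AdipoqTraced (48.6% of all genes called) and 24 and 0 in CD26 (36.7%), and the medians over all genes were 2.34 and 1.99. Both comparisons use the same Adipocyte libraries, with 2 libraries in each group. Without Adipocyte replicate 1 or replicate 2, 14 chains were called in AdipoqTraced, all higher. In CD26 the counts were 14 higher and 0 lower without Adipocyte replicate 1 and 13 higher and 3 lower without replicate 2.

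Among the fibrillar chains 9 of 11 were called higher in AdipoqTraced and 8 of 11 in CD26. Most fibroblast markers moved with them: their 6 genes summed to 1506 and 1991 CPM in Adipocyte, 3942 and 3277 in AdipoqTraced and 4062 and 4583 in CD26. Of the 6, 3 and 4 were called higher, and 5 had a log2 fold change above 0 in each comparison. Dpt went the other way in both, at 965.6 and 844.1 CPM in Adipocyte, 701.8 and 594.7 in AdipoqTraced and 697.2 and 827.4 in CD26. Dpp4, another of the 6, encodes the protein that labels the CD26 group, so its level there is tied to the sort. The part of these markers in the results was not tested. Col1a1 (chromosome 11, 94936224 to 94953042), the main chain of type I collagen, was at 2261 and 5081 CPM in Adipocyte, 25870.3 and 18201 in AdipoqTraced, and 28259 and 31216 in CD26. Its partner Col1a2 was at 2021 and 4354, 18559.7 and 15673, and 22526 and 25858 CPM in the same order. Adipocytes thus held at least 2021 CPM of both type I chains, and the other groups lay above them without overlap. The log2 fold change of Col1a1 was 2.58 (SE 0.34, adjusted p = 0.000754) in AdipoqTraced and 3.02 (SE 0.35, adjusted p = 0.000301) in CD26. Col3a1 (chromosome 1, 45311538 to 45349706), which forms type III collagen alone, was at 1539 and 2802 CPM in Adipocyte, 12707 and 10619.9 in AdipoqTraced, and 24697 and 26127 in CD26. It rose by 2.42 (SE 0.28, adjusted p = 3e-04) and 3.55 (SE 0.29, adjusted p = 2.86e-05) on the log2 scale. The AdipoqTraced libraries held less Col3a1 than either CD26 library, but that difference of -1.12 (SE 0.27) was not called (adjusted p = 0.106).

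Type V and XI chains regulate the diameter of type I fibrils. Col5a1 was at 136.1 and 153.0 CPM in Adipocyte, 2725 and 2034 in AdipoqTraced, and 2139 and 2523 in CD26, with log2 fold changes of 4.04 (SE 0.27) and 4.01 (SE 0.27). Col5a2 rose by 2.73 and 3.16. Col5a3 was at 179.2 and 71.5 CPM in Adipocyte, 526.0 and 457.9 in AdipoqTraced and 252.7 and 288.3 in CD26, and was called in AdipoqTraced alone (1.98, SE 0.39, adjusted p = 0.00806, lost without AdipoqTraced replicate 1), while a difference between AdipoqTraced and CD26 was not called (adjusted p = 0.261). The minor fibrillar chains Col11a1, Col24a1 and Col27a1 were at 7.84 CPM or less in both Adipocyte libraries and rose by 4.50 to 6.98 in both comparisons. Col11a1 reached 99.9 and 102 CPM in AdipoqTraced and 29.9 and 29.4 in CD26. The call of Col24a1 in both comparisons and that of Col11a1 in CD26 was lost without either Adipocyte library.

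Of the FACIT chains 3 of 9 were called higher in each comparison. Col12a1 (chromosome 9, 79598991 to 79718831), a long chain that bridges fibrils in tissue under tension, was at 21.1 and 29.5 CPM in Adipocyte, 3538 and 3703 in AdipoqTraced, and 2494 and 2469.88 in CD26. It had the smallest p of all members in both comparisons, with a log2 fold change of 7.15 (SE 0.30, adjusted p = 3.73e-07) and 6.60 (SE 0.29, adjusted p = 3.84e-07). Col14a1, which binds fibrils through decorin, was at 19.7 and 35.8 CPM in Adipocyte, 330.01 and 218.2 in AdipoqTraced, and 603.4 and 670.7 in CD26. It rose by 3.28 (SE 0.38) and 4.50 (SE 0.39), and here CD26 lay above AdipoqTraced, though uncalled (adjusted p = 0.124). Col16a1 rose too, by 4.22 in AdipoqTraced and 4.73 in CD26, from 3.18 and 2.80 CPM, and in AdipoqTraced that call was lost without either Adipocyte library. The other 6 FACIT chains stayed at 5.35 CPM or less in every library.

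Col4a1 and Col4a2, which form the main type IV collagen of basement membranes, were called lower in CD26 than in adipocytes. Col4a1 (chromosome 8, 11198423 to 11312826) was at 512.9 and 223.6 CPM in Adipocyte, 577.5 and 299.5 in AdipoqTraced, and 74.6 and 91.3 in CD26, and Col4a2 at 569.6 and 259.03, 353.5 and 225.1, and 101.3 and 133.9. Adipocyte and AdipoqTraced overlapped for both chains, while CD26 lay below all 4 libraries. Scaled by library size alone, both were called higher in AdipoqTraced than in Adipocyte, Col4a1 by 2.20 (adjusted p = 0.00221) and Col4a2 by 1.43 (adjusted p = 0.0162), below the 2.34 median of all genes under that scaling. In CD26 Col4a1 fell by 2.15 (SE 0.43, adjusted p = 0.01) and Col4a2 by 1.81 (SE 0.40, adjusted p = 0.0159) on the log2 scale against adipocytes. Both calls were lost without Adipocyte replicate 1, without CD26 replicate 1 or 2, and under scaling by library size alone, and that of Col4a1 also with all 14 libraries in one fit. The sum of the pericyte and smooth muscle markers moved with both, at 456.2 and 294.9 CPM in Adipocyte and 98.9 and 141 in CD26. Of these 6 genes, 2 were called lower and 2 had a log2 fold change above 0. Mcam was the largest part of the Adipocyte sums, at 320.7 and 147.99 CPM against 12.4 and 15.1 in CD26. Endothelial markers went the other way, with sums of 22.23 and 14.93 CPM in Adipocyte and 88.5 and 124 in CD26. All 6 had a log2 fold change above 0, and 1 was called higher. The part of both marker lists in this result was not tested. Col4a5, a chain of another type IV network, was at 0.907 and 1.68 CPM in Adipocyte, 0 and 1.46 in AdipoqTraced, and 9.43 and 22.6 in CD26, above the adipocytes without passing the test (adjusted p = 0.122). Col15a1, a multiplexin of the zone between basement membrane and fibrils, was at 173.1 and 77.8 CPM in Adipocyte, 196.6 and 165.5 in AdipoqTraced, and 30.2 and 47.7 in CD26, where it fell by 1.68 (SE 0.44, adjusted p = 0.0352, lost in 7 of 14 alternatives including those without Adipocyte replicate 1 and without CD26 replicate 1 or 2). Col4a3, a chain of specialised basement membranes such as that of the kidney, fell from 4.54 and 21.5 CPM to 0 and 0.573 in AdipoqTraced (adjusted p = 0.0446), a call lost in 9 of 14 alternatives, among them without any of the 4 libraries.

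Col18a1, the multiplexin that contains endostatin, was at 4.99 and 8.77 CPM in Adipocyte, 69.3 and 46.3 in AdipoqTraced, and 17.1 and 12.2 in CD26. It rose in AdipoqTraced (3.04, SE 0.65, adjusted p = 0.0133), a call lost without either Adipocyte library or AdipoqTraced replicate 1. Col8a1, a short network chain of vessels and scars, was at 22.0 and 15.1 CPM in Adipocyte, 422.8 and 503.3 in AdipoqTraced, and 410.4 and 403.5 in CD26, and rose by 4.66 (SE 0.35) and 4.47 (SE 0.35).

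All 3 classical chains of type VI collagen, which assemble into beaded filaments, were higher than in adipocytes. Col6a3 (chromosome 1, 90765923 to 90843971) was at 159.2 and 152.5 CPM in Adipocyte, 3189 and 2544 in AdipoqTraced, and 784.5 and 1003 in CD26. It rose by 4.20 (SE 0.27, adjusted p = 6.47e-06) and 2.52 (SE 0.26, adjusted p = 0.000128). Col6a1 rose by 3.76 and 2.59, and Col6a2 by 3.37 and 2.43. Col6a5 was at 0 counts in both Adipocyte libraries, at 16.74 and 16.55 CPM in AdipoqTraced, and at 13.8 and 31.2 in CD26. The CD26 mean was 73.2-fold above a floor of 3 counts over the Adipocyte group, and the chain was called there (adjusted p = 0.0334). The AdipoqTraced mean was 54.2-fold above that floor without passing the test (adjusted p = 0.0578). Both AdipoqTraced libraries lay between the CD26 libraries, and Col6a5 was not called between these groups. Col6a6 rose by 2.08 in CD26 (adjusted p = 0.0425). The call of Col6a5 was lost in 6 and that of Col6a6 in 9 of 14 alternatives, among them those without any of the 4 libraries.

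Col7a1 (chromosome 9, 108953586 to 108984875), the chain of anchoring fibrils, was at 1.13 and 2.24 CPM in Adipocyte, 31.7 and 39.5 in AdipoqTraced, and 16.3 and 15.1 in CD26. It rose in AdipoqTraced (4.35, SE 0.85, adjusted p = 0.0058), a call lost without either Adipocyte library. In CD26 it lay above the adipocytes without passing the test (adjusted p = 0.0559). Of the transmembrane chains, Col17a1, a hemidesmosome protein of basal keratinocytes, was at 0 and 2.99 CPM in Adipocyte and 16.6 to 22.1 in the other new libraries, and Col23a1 at 0.907 and 0.560 against 5.96 to 12.3, none of them called. Keratinocyte markers moved with Col7a1 and Col17a1 against adipocytes. The 6 markers summed to 35.8 and 80.3 CPM in Adipocyte, 511 and 262 in AdipoqTraced and 397 and 1135 in CD26. In AdipoqTraced against CD26, 2 of the 6 markers had a log2 fold change above 0. Col7a1 differed there by 1.18 and Col17a1 by 0.12, and no marker and neither chain was called. Epcam was at 0 in Adipocyte, 0 and 0.509 CPM in AdipoqTraced and 6.305 and 6.035 in CD26. The part of these markers in the results was not tested.

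**Figure D3:**
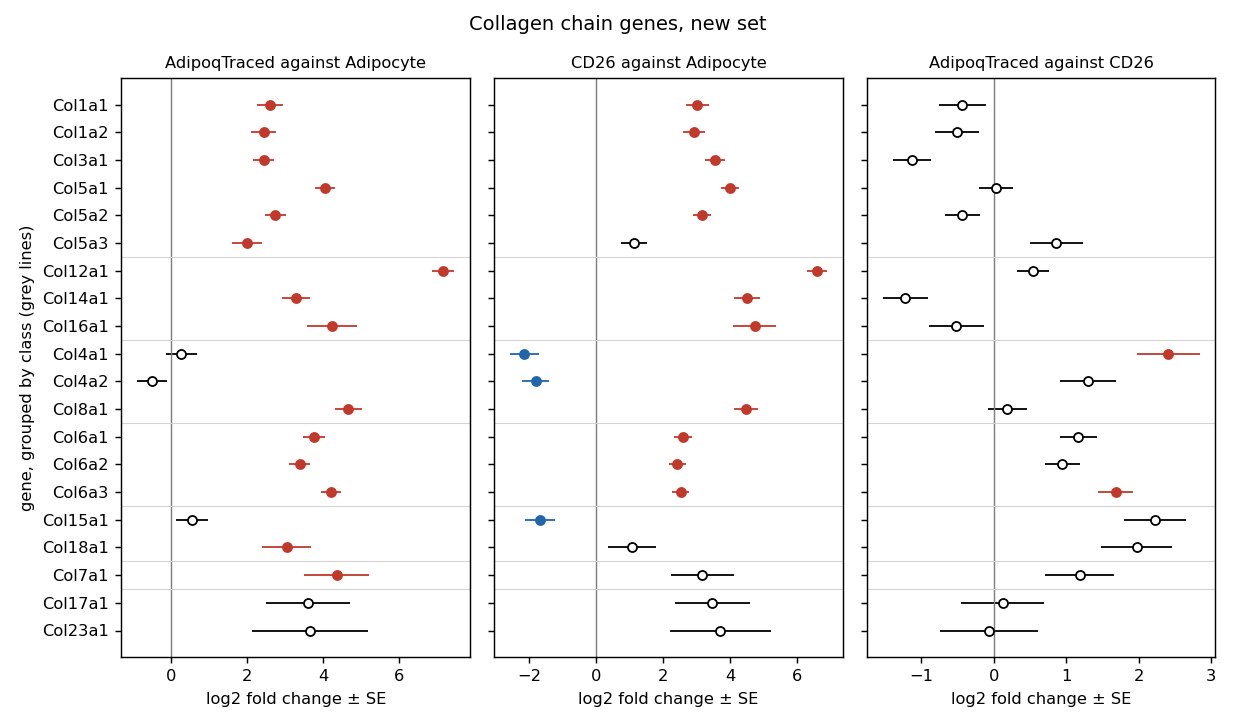
Log2 fold change with its standard error for 20 collagen chains in the 3 comparisons of the new set, by class. Red marks chains called higher and blue chains called lower at an adjusted p under 0.05, with open symbols for the rest. Against adipocytes the fibrillar, FACIT and type VI chains lie to the right, led by Col12a1 at 7.15 and 6.60, while Col4a1 and Col4a2 are lower in CD26.

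Set directly against CD26 cells, AdipoqTraced cells had more Col6a3 and Col4a1, the only 2 of the 44 chains called, where 0.379% of all genes were called. Without the adjustment over genes, 20 of the 35 tested chains had a p under 0.05, 12 of them higher in AdipoqTraced and 8 lower. The share of all genes under that threshold is not given, here or below, so such counts are descriptions only. Col6a3 differed by 1.68 (SE 0.24, adjusted p = 0.0246) and Col4a1 by 2.40 (SE 0.43, adjusted p = 0.0477), with both AdipoqTraced libraries above both CD26 libraries. The Col6a3 call was lost in 6 of 14 alternatives, among them without AdipoqTraced replicate 1 and without either CD26 library, and the Col4a1 call in 10 of 14, among them without any of the 4 libraries. Over all alternatives 0 to 9 chains were called, with 9 in the fit of all 14 libraries, which called 3.63% of all genes. The difference did not pass the test for Col6a1 (1.17, SE 0.25, adjusted p = 0.0828) or Col6a2 (0.95, SE 0.24, adjusted p = 0.124). It did not pass for Col4a2 (1.3, SE 0.39, adjusted p = 0.156), Col15a1 (2.22, SE 0.42, adjusted p = 0.0564), Col18a1 (1.97, SE 0.49, adjusted p = 0.114) or Col11a1 (1.77, SE 0.39, adjusted p = 0.0803) either. In each of these the AdipoqTraced libraries lay above the CD26 libraries without overlap, which with so few libraries is no test. The 8 lower chains were Col3a1, Col14a1, Col6a6, Col4a3, Col4a4, Col4a5, Col9a3 and Col28a1, none of them called, and Col4a4, Col9a3 and Col28a1 are named after their values were seen. Col4a5 had the smallest p of these (-4.42, SE 1.05, adjusted p = 0.0864), and Col6a6 differed by -1.52 (SE 0.46, adjusted p = 0.156), both with no overlap. Pericyte and smooth muscle markers moved with Col4a1: their 6 genes summed to 402 and 234 CPM in AdipoqTraced and 98.9 and 141 in CD26, all 6 with a log2 fold change above 0. None of the 6 was called (edgeR), 3 had an unadjusted p under 0.05, and their part in this result was not tested. Endothelial markers, which belong to another source of type IV collagen, summed to 18.1 and 40.1 CPM in AdipoqTraced and 88.5 and 124 in CD26, and their part was not tested either.

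Within the AP cells no collagen chain was called between AP_CD9High and AP_CD9Low, where 0.0129% of all 15527 tested genes were called. An unadjusted p under 0.05 was found for 5 chains, a count without the share of all genes beside it. DESeq2 called 1, Col5a3, and 0.699% of all genes. Col5a3 was at 1553 and 1616 CPM in AP_CD9High and 1096 and 905.8 in AP_CD9Low, a difference of 0.66 (SE 0.17, adjusted p = 0.616). Col6a3 was at 856.2 and 749.4 against 586.7 and 482.2 CPM (0.59, SE 0.16, adjusted p = 0.812). In both genes the AP_CD9High libraries lay above the AP_CD9Low ones. Col4a1 instead went with the number in the labels, at 260.3 and 230.98 CPM in the 2 libraries numbered 2 and 57.5 and 77.1 in those numbered 4, and Col4a2 likewise at 104.9 and 140.6 against 49.2 and 56.2. AP_CD9Low and AP_CD9High libraries carry the same label numbers, so the 4 AP libraries may not be separate samples. The CD29 libraries also carry the numbers 2 and 4, and the DN libraries 2 and 3. Libraries of one number may thus share a source in the comparisons with CD29 and DN too.

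CD29 cells differed from AP cells (the mean of both AP groups) in 14 chains, 9 higher and 5 lower, where 6.25% of all genes were called, 3.52% higher and 2.72% lower. DN cells differed from AP cells in 11, 4 higher and 7 lower, where 9.65% of all genes were called, 5.8% higher and 3.84% lower. The same AP libraries serve both comparisons. Scaled by library size alone, the splits were 12 higher and 4 lower in CD29 (9.52% of all genes called) and 6 and 6 in DN (10.6%). The median of the 35 tested chains was 0.44 in CD29 and -0.11 in DN, beside 0.15 and 0.00099 over all genes, so chains moved in both directions. Leaving out 1 library gave 8 to 12 calls in CD29 and 6 to 11 in DN, the fewest without CD29 replicate 2 and DN replicate 2. Markers of other cells moved with both comparisons. All 6 fibroblast markers were lower in CD29 and in DN, with sums of 6867 to 9154 CPM in the AP libraries, 1935 and 2597 in CD29 and 2556 and 2787 in DN. Pericyte and smooth muscle markers summed to 3.64 to 15.96 CPM in AP, 233 and 287 in CD29 and 86.5 and 94.4 in DN, with 6 of 6 and 4 of 6 called higher, and Myh11 was at 0 in every AP library. Macrophage markers summed to 627 to 1495 CPM in AP, 2189 and 2649 in CD29 and 5443 and 6170 in DN. The part of these cells in the collagen differences was not tested.

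The major fibrillar chains were lower in both groups. Col3a1 was at 78267 and 67650.2 CPM in AP_CD9Low, 79738 and 66358 in AP_CD9High, 28975 and 27627 in CD29, and 40450.2 and 34153 in DN. It fell by 1.37 (SE 0.13, adjusted p = 0.000154) in CD29 and by 0.97 (SE 0.13, adjusted p = 0.000782) in DN on the log2 scale. Col1a2 was at 34777 to 39537 CPM in the AP libraries, 21133 and 18709 in CD29, and 21024 and 18336 in DN, and fell by 0.93 (SE 0.12) and 0.95 (SE 0.12). Col1a1 fell by 0.77 (SE 0.16) and 0.86 (SE 0.16), calls lost without CD29 replicate 2 and DN replicate 2 respectively, and both with all 14 libraries in one fit. For all 3 chains no CD29 or DN library reached an AP library. The call held in every alternative for Col3a1 and Col1a2.

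Other fibril components did not follow one direction. Col5a1 fell by 0.54 (SE 0.13, adjusted p = 0.0237) and Col5a2 by 0.76 (SE 0.14, adjusted p = 0.00541) in DN, whereas neither was called in CD29. The Col5a2 call was lost without DN replicate 2, and the Col5a1 call in 7 of 17 alternatives, among them without DN replicate 1, DN replicate 2, AP_CD9Low replicate 1 or either AP_CD9High library. Col11a1, at 0.0777 to 2.06 CPM in the AP libraries, was at 19.0 and 12.3 in CD29 and 3.85 and 20.3 in DN. It rose by 4.28 (SE 0.78) and 3.82 (SE 0.84), a call lost without CD29 replicate 1 in the first case, and in the second without DN replicate 2, without AP_CD9Low replicate 2 or with the AP libraries of one label number summed. Col27a1 rose by 1.06 in CD29 (adjusted p = 0.0334), a call lost in 10 of 17 alternatives, among them without any of the 6 libraries but AP_CD9Low replicate 1.

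The FACIT chains split. Col14a1 (chromosome 15, 55307750 to 55520803) was at 623.3 and 898.2 CPM in AP_CD9Low, 531.0 and 659.6 in AP_CD9High, 87.0 and 96.2 in CD29, and 229.2 and 122.6 in DN. It fell by 2.88 (SE 0.28, adjusted p = 0.000165) and 1.93 (SE 0.26, adjusted p = 0.000941) and kept the call in all 17 alternatives. Col12a1 was at 255.4 to 420.8 CPM in AP, 1024 and 874.0 in CD29, and 453.2 and 459.4 in DN. It rose in CD29 (1.43, SE 0.16, adjusted p = 0.000401) in all 17 alternatives and was not called in DN (adjusted p = 0.204). CD29 libraries thus stood lowest of the reanalysed set for Col14a1 and highest for Col12a1. Col16a1 was at 226.9 to 315.3 CPM in the whole set and was called in neither comparison.

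Col7a1 rose more than any other called chain in CD29. It was at 1.54 and 3.42 CPM in AP_CD9Low, 4.88 and 7.18 in AP_CD9High, 107.8 and 87.8 in CD29, and 41.0 and 37.7 in DN. The log2 fold change was 4.67 (SE 0.27, adjusted p = 1.13e-05) in CD29 and 3.35 (SE 0.30, adjusted p = 6.94e-05) in DN, and both calls held in all 17 alternatives. Keratinocyte markers, which belong to a known source of type VII collagen, summed to 6.83 to 27.2 CPM in AP, 34.0 and 179 in CD29 and 68.8 and 1379 in DN. Their part in the Col7a1 result was not tested. Col17a1 was high in the same library as these markers, at 22.5 CPM in DN replicate 2, where Krt14 was at 961.7 and Krt5 at 374.6, and at 1.02 CPM in DN replicate 1, and it was not called. Col23a1, a transmembrane chain, was at 2.57 to 4.35 CPM in AP, 26.2 and 28.4 in CD29, and 13.3 and 15.1 in DN. It rose by 3.03 (SE 0.34, adjusted p = 0.00041) and 2.08 (SE 0.38, adjusted p = 0.00536), again in all 17 alternatives.

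Among the type VI, network and multiplexin chains, 4 were called higher in CD29 and 1 in DN. Col6a3 was at 482.2 to 856.2 CPM in AP, 1330.3 and 1219 in CD29, and 766.5 and 709.1 in DN, and rose in CD29 (0.96, SE 0.13, adjusted p = 0.00161). Col6a1 and Col6a2 were not called in either comparison, although the CD29 libraries, at 1984 and 2232 and at 1879 and 1903 CPM, lay above all AP libraries. Col18a1 was at 46.3 to 88.2 CPM in AP, 183.0 and 220.6 in CD29, and 103.5 and 171.3 in DN. It rose by 1.56 (SE 0.26, adjusted p = 0.00434, lost without CD29 replicate 2) and 0.999 (SE 0.26, adjusted p = 0.0367, lost in 10 of 17 alternatives, among them without DN replicate 2, either AP_CD9Low library or AP_CD9High replicate 2). Col8a1 rose by 1.42 (SE 0.27, adjusted p = 0.00933) in CD29, also lost without CD29 replicate 2, and Col15a1 by 1.46 (adjusted p = 0.038). The Col15a1 call was lost in 9 of 17 alternatives, among them without either CD29 library, either AP_CD9Low library or AP_CD9High replicate 2. Col4a5, a type IV chain found in skin, fell from 21.5 to 37.2 CPM in AP to 8.24 and 5.17 in CD29 and 2.04 and 11.1 in DN (adjusted p = 0.0325 and 0.0201), calls lost in 9 and 5 of 17 alternatives. Its call in CD29 was lost without either CD29 library, either AP_CD9Low library or AP_CD9High replicate 1, and that in DN without DN replicate 1, AP_CD9Low replicate 1 or AP_CD9High replicate 1. Col4a1 and Col4a2 overlapped between AP and both groups and were not called.

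**Figure D4:**
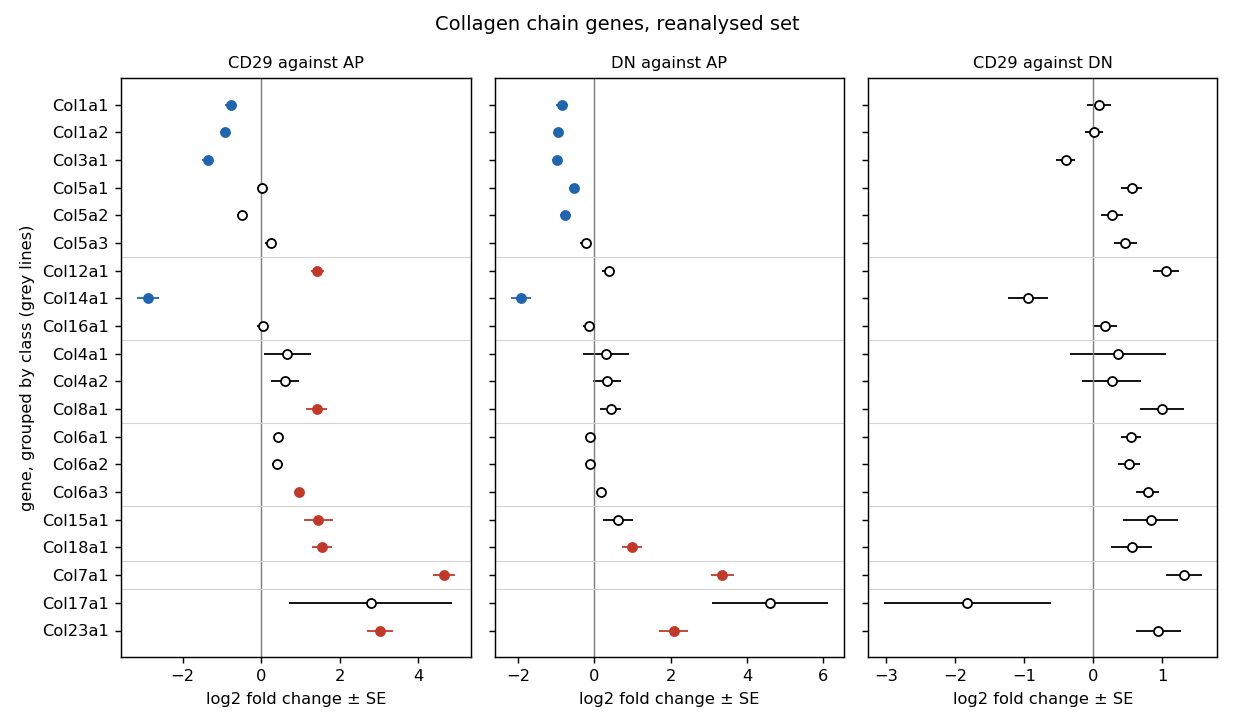
Log2 fold change with its standard error for 20 collagen chains in 3 comparisons of the reanalysed set, by class. Red marks chains called higher and blue chains called lower, with open symbols for the rest. Col7a1 lies at 4.67 and 3.35 and Col14a1 at -2.88 and -1.93 against AP, and no chain is called between CD29 and DN.

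Between CD29 and DN cells no chain was called, where 0.219% of all genes were called. An unadjusted p under 0.05 was reached by 11 chains, again without the share of all genes beside it. DESeq2 called 4 chains and 2.37% of all genes. Col12a1 differed by 1.06 (SE 0.19, adjusted p = 0.0659), Col7a1 by 1.32 (SE 0.26, adjusted p = 0.0887) and Col6a3 by 0.79 (SE 0.16, adjusted p = 0.0997), each with both CD29 libraries above both DN libraries. Col3a1 went the other way, by -0.40 (SE 0.14, adjusted p = 0.306). An effect called against AP in CD29 alone, such as that of Col12a1 or Col6a3, is therefore not shown to differ between CD29 and DN.

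Chains that are assembled together were compared per kilobase of exon, as ratios of levels within a library. Col6a3 to Col6a1 stood at 1.03 and 1.04 in AdipoqTraced, 0.668 and 0.777 in CD26, and 0.840 and 0.697 in Adipocyte, and at 0.133 to 0.245 across the reanalysed set. AdipoqTraced lay above the other new groups, and CD29, at 0.245 and 0.200, lay close to DN, at 0.197 and 0.178. Col1a2 to Col1a1 was 0.379 to 0.472 in the new set and 0.633 to 0.853 in the reanalysed set, and Col6a2 to Col6a1 was 0.689 to 1.04 and 0.443 to 0.513. The sets did not overlap in these 3 ratios, and set and group cannot be told apart there. Col4a2 to Col4a1 was 1.53 and 1.65 in CD26, 1.25 and 1.31 in Adipocyte, and 0.690 and 0.848 in AdipoqTraced. Type I collagen is usually assembled from more Col1a1 than Col1a2 chains. The ratios depend on the length taken for each gene: with the longest transcript in place of all exon bases, the median of Col1a2 to Col1a1 was 0.934 in the new set and 1.61 in the reanalysed set.

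**Figure D5:**
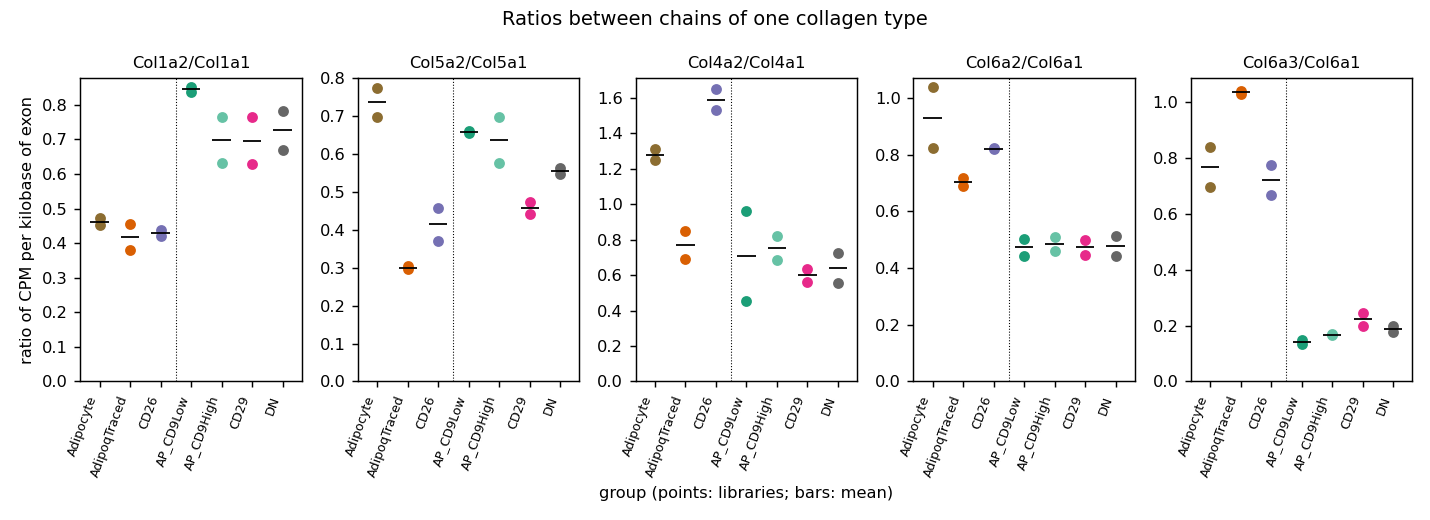
Ratio of levels per kilobase of exon between chains of one collagen type, by group. Points are libraries and bars their mean, with a dotted line between the 2 sets. Col6a3 to Col6a1 is 1.03 and 1.04 in AdipoqTraced and at most 0.245 in the reanalysed libraries, and Col1a2 to Col1a1 is at most 0.472 in the new set and at least 0.633 in the other.

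The genes that process collagen moved with the chains in the new set. Of 32 genes for hydroxylases, chaperones, propeptide proteases and cross-linking enzymes, 24 were called higher and 0 lower in AdipoqTraced against Adipocyte. In CD26 15 were called higher and 0 lower (31 tested, median 2.85 and 2.20). Of those tested, 28 and 30 had a log2 fold change above 0. Pcolce2 lay below 0 in both comparisons, at -1.61 and -1.70, and P3h2 in AdipoqTraced, at -1.10, none of them called. Over all genes tested, 4.08% and 4.91% were called higher, with medians of 0.27 and 0.30. These genes too could pass the filter through the group where they are high, so the medians are descriptions. Plod2, a lysyl hydroxylase of the collagen telopeptides, rose by 4.72 (SE 0.36) and 5.94 (SE 0.36). Serpinh1, which encodes the collagen chaperone HSP47, rose by 2.31 (SE 0.25) in AdipoqTraced, and Fkbp10, a prolyl isomerase of the endoplasmic reticulum, by 5.28 (SE 0.64). In CD26 the cross-linking enzymes Lox and Loxl2 rose by 3.43 (SE 0.36) and 4.26 (SE 0.48). None was called between AdipoqTraced and CD26, where 0.379% of all genes were called. An unadjusted p under 0.05 was reached by 10, a count without the share of all genes beside it. DESeq2, which called 3.22% of all genes there, called 3 genes of this list and the receptor list together. Against AP cells 6 of the 32 were called lower in CD29 and 11 in DN, with 0 called higher (30 tested, median -0.52 and -0.58). Over all genes tested there, 2.72% and 3.84% were called lower, with medians of 0.15 and 0.00099. Pcolce2 and Pcolce, which enhance removal of the C-terminal propeptide, fell by 1.67 and 0.77 in CD29 and by 1.96 and 0.92 in DN. Lox fell by 1.23 (SE 0.23) in CD29, and Adamts2, the N-propeptide protease, by 0.89 (SE 0.16) in DN.

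Among 10 collagen receptor genes, 3 were called higher in both groups against adipocytes. They were Itgb1, the shared integrin subunit, Itga11, its partner for type I collagen, and Mrc2, which takes up collagen for breakdown. Their log2 fold changes were 2.28, 2.88 and 3.72 in AdipoqTraced, and 1.93, 3.16 and 3.27 in CD26. Over all genes tested, 4.08% and 4.91% were called higher in these comparisons. Against AP cells Itga1, an integrin subunit that binds type IV collagen, rose by 2.76 (SE 0.46) in CD29 and 1.85 (SE 0.50) in DN. Ddr2, a receptor kinase for fibrillar collagen, fell by 0.92 (SE 0.18) and 1.32 (SE 0.18). Lair1, an inhibitory collagen receptor of immune cells, rose in DN by 2.69 (SE 0.52), the group in which all 6 macrophage markers were called higher, whose part in this result was not tested. Between the AP groups and between CD29 and DN, edgeR called no gene of either list, and 0.0129% and 0.219% of all genes. In each of these 2 comparisons 2 processing genes and 1 receptor gene had an unadjusted p under 0.05, again without the share of all genes. DESeq2 called 0 and 1 genes of the lists together, and 0.699% and 2.37% of all genes. Single libraries moved the calls of both lists together by more than 1.5 times. In AdipoqTraced against Adipocyte 27 calls became 17 without Adipocyte replicate 1, and in CD26 against Adipocyte 18 became 10 and 11 without CD26 replicate 1 and 2. In CD29 against AP 8 calls became 5 without AP_CD9Low replicate 1 or AP_CD9High replicate 1, 2 without CD29 replicate 1 and 0 without CD29 replicate 2. In DN against AP 14 became 8 and 5 without DN replicate 1 and 2.

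The chains left over were at the edge of detection. In the new set Col4a6, Col6a4, Col9a1, Col9a2, Col10a1, Col13a1, Col19a1, Col22a1 and Col26a1 did not pass the filter and reached at most 1.59 CPM. In the reanalysed set Col2a1, Col4a6, Col9a1, Col9a2, Col10a1, Col13a1, Col19a1, Col22a1 and Col25a1 did not, and reached at most 1.17 CPM. Col13a1, a transmembrane chain, had counts in only 2 of the 14 libraries, at 1.59 CPM in CD26 replicate 1 and 1.13 in AP_CD9Low replicate 2. No member was at 0 in every library. A count of 0 in a library allows a level of up to 0.0919 to 0.680 CPM, for counting error only, and the highest of these limits were those of the Adipocyte libraries.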

How the data were processed

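The values are whole-number counts per gene in 1 deposited table, with Ensembl identifiers and no normalisation by the authors. CASAVA 1.8.2, HISAT2 2.1, StringTie 1.3.3b, DESeq2 and mm10 are named in the submitters' processing notes. The Absolutely RNA Nanoprep Kit and the SMARTer Ultra Low RNA Kit were used, per the labels' protocols. The strand setting is unknown here. Symbols, classes and exon lengths came from GENCODE M21, which matched 52403 of 52636 identifiers, and 0 columns belonged to other samples.

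Each set was fitted alone with glmQLFit (robust = TRUE) and glmQLFTest of edgeR 4.0.16 in R 4.3.3, 1 coefficient per group, after filterByExpr, with TMM factors from all 14 libraries. This tested 16107 genes with 3 residual degrees of freedom (new) and 15527 with 4 (reanalysed). P-values are two-sided and adjusted by Benjamini-Hochberg over all genes, a gene being called under 0.05, and the fit was tested on simulated data. AP weights both AP coefficients by 0.5. SE is the absolute log2 fold change over the root of F. Levels are CPM after TMM, and ratios use union exon bases. Floors of 3 counts cover counting error only, since reads without molecular identifiers are not independent molecules.

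The members, lists and 21 chains named whatever their result were chosen with earlier results of these data known, and all other called members are named as well. Of the processing and receptor lists, the 3 called genes with the smallest p are named. Alternatives were other scalings, no filter on low counts, legacy and non-robust fits, DESeq2 1.42.0, the replicate number as a block, other libraries in the fit, and leaving out each library.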

Additional observations from a re-analysis of the deposited data

How the results depend on the processing

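Of 66 calls of a collagen chain in a comparison, 38 held under every alternative, 8 were lost under 0.5 or more of them, and 0 of their 999 alternative values changed sign. The 131 losses comprised 77 with 1 library left out, where the lone library is assumed to vary like the other groups, and 54 under other settings. The 179 uncalled pairs of a tested chain and a comparison gave 2631 alternative values, of which 128 had the opposite sign, 72 were called and 1 was both. In AdipoqTraced against Adipocyte the log2 fold change of Col4a1 (0.26) was -0.30 to 0.97 with a library left out, and that of Col4a2 (-0.51) was -0.98 to 0.16 and, with library size alone, 1.43. The cause of these changes was not tested.

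Chains called in AdipoqTraced against CD26 (2) were 7 with library size alone, 1 with median-of-ratios size factors, 1 with no filter on low counts, 0 with legacy = TRUE, 0 with robust = FALSE, 8 with DESeq2 (7 higher, 1 lower), 5 with only the groups compared (4 and 1), 9 with all 14 libraries in one fit (6 and 3), and 0 to 1 with a library left out. Of all genes, 0.379% were called in AdipoqTraced against CD26 in the main fit, 1.07% with library size alone and 0.33% with median-of-ratios size factors. The share was 0.169% with no filter on low counts, 0.0373% with legacy = TRUE and 0.13% with robust = FALSE. It was 3.22% with DESeq2, 0.768% with only the groups compared and 3.63% with all 14 libraries in one fit. DESeq2 called 1 chain in AP_CD9High against AP_CD9Low (0.699% of all genes) and 4 in CD29 against DN (2.37%). With a library left out the count was 14 to 18 in AdipoqTraced against Adipocyte, 14 to 16 in CD26 against Adipocyte, 8 to 12 in CD29 against AP and 6 to 11 in DN against AP. With library size alone the splits were 27 higher and 0 lower in AdipoqTraced against Adipocyte (48.6% of all genes called). They were 24 and 0 in CD26 against Adipocyte (36.7%). With all 14 libraries in one fit the split was 5 and 5 in DN against AP (6.46%). Library size alone moved the median over all genes (log2 fold change) from 0.27 to 2.34 in AdipoqTraced against Adipocyte, 0.30 to 1.99 in CD26 against Adipocyte, -0.027 to 0.34 in AdipoqTraced against CD26, 0.15 to 0.43 in CD29 against AP and 0.00099 to 0.27 in DN against AP. Summing AP libraries of the same label number, an alternative chosen after seeing the data, gave 11 and 8 calls in CD29 and DN against AP. Of all genes, 4.35% and 7.63% were called there.

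Processing and receptor genes called together were 17 to 25 with a library left out in AdipoqTraced against Adipocyte (27 in the full data), and in CD26 against Adipocyte (18) they were 35 with library size alone and 10 to 16 with a library left out. In AdipoqTraced against CD26 (0) they were 3 with library size alone (1.07% of all genes called) and 3 with DESeq2 (3.22%). They were 2 with only the groups compared (0.768%) and 6 with all 14 libraries in one fit (3.63%). In CD29 against AP (8) they were 5 with no filter on low counts, 4 with legacy = TRUE, 15 with DESeq2, 5 with all 14 libraries in one fit and 0 to 8 with a library left out. The range was 5 to 13 in DN against AP (14), and DESeq2 called 1 in CD29 against DN.

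With the replicate number as a block, the replicate block fit called 0 chains in AdipoqTraced against CD26 and 1 in CD29 against DN. Of all genes, it called 0.0124% and 0.341%. Replicate differences over genes correlated at -0.0281 to 0.0489 between groups, so the replicate numbers were not taken to pair the samples. This does not settle whether libraries of one label number share a source. DN replicate 2 carries label number 3, so the block set it beside libraries numbered 4.

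Summed collagen CPM was 10820.0 in Adipocyte, 2955 with library size alone and 15160.0 with the mitochondrial genome left out. The 2 alternatives gave 77050.0 and 124400.0 in CD26 (89280.0), 185500.0 and 214400.0 in AP_CD9Low (147600.0), 191000.0 and 221900.0 in AP_CD9High (151900.0), 118600.0 and 110000.0 in CD29 (77680.0), and 122800.0 and 116300.0 in DN (81240.0). In AdipoqTraced (65510.0) leaving out the mitochondrial genome gave 91120.0. With the longest transcript as length, the median ratio of Col1a2 to Col1a1 went from 0.445 to 0.934 (new) and 0.765 to 1.61 (reanalysed), Col5a2 to Col5a1 from 0.569 to 0.816 (reanalysed), and Col6a2 to Col6a1 from 0.821 to 1.3 (new) and 0.479 to 0.760 (reanalysed).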
